A study of Mus musculus with 9 samples.

Results

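The mRNAs of 10 subunits of protein phosphatase 2A (PP2A) were followed in macrophages that differed in the RNA-binding protein tristetraprolin (TTP). They were chosen by gene name, with earlier results of these data known. They were the catalytic subunits Ppp2ca and Ppp2cb, the scaffold subunits Ppp2r1a and Ppp2r1b, the B55 regulatory subunits Ppp2r2a and Ppp2r2d, and the B56 regulatory subunits Ppp2r5a, Ppp2r5c, Ppp2r5d and Ppp2r5e. All 10 were found among the 25494 genes of the deposited table, and all 10 were among the 13027 genes with a mean of at least 10 reads after scaling. The cells were mouse bone marrow-derived macrophages (BMDMs), grown with M-CSF at 10 ng/ml for 10 days, lacking endogenous TTP (gene Zfp36) in all 3 groups and immortalized with the human c-myc and a mutant human Ras oncogene. Cells positive for the macrophage proteins CD11b and F4/80 then received a tet-inducible vector for GFP alone (GFP), a GFP fusion of TTP (TTP) or a GFP fusion of TTP with the substitutions S52A and S178A (TTP-AA). All libraries came from cells given doxycycline, which switches on the transgene, at 1 µg/ml for 6 h and lipopolysaccharide (LPS), a bacterial activator of macrophages, at 1 µg/ml for 1 h. Each group had 3 libraries, 9 in all, each transgene being carried by cells transduced with 1 vector, so that a transgene and any other difference between the transduced cells cannot be told apart. No library without doxycycline or LPS was analysed here.

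PP2A is among the main serine/threonine phosphatases of the cell. A scaffold subunit and a catalytic subunit form the core enzyme, and a regulatory subunit that joins them, of the B55, B56 or other families, sets where the enzyme acts and on which proteins. TTP binds AU-rich elements in the 3' untranslated regions (3'UTRs) of inflammatory mRNAs and brings about their decay. In LPS-treated macrophages the kinase MK2 phosphorylates TTP at the serines that TTP-AA lacks, 14-3-3 proteins bind the phosphorylated form, and PP2A removes the phosphates and returns TTP to its active state. The comparisons below ask whether the mRNAs of the enzyme that acts on TTP differed between cells with no TTP, with TTP and with the TTP that this kinase cannot phosphorylate at those serines.

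TTP and its relatives favour the sequence TATTTAT (written as DNA), which contains the shorter pentamer ATTTA of AU-rich elements. The 3'UTRs of the subunits were searched for both on the transcript strand, in the GENCODE transcript with the longest coding sequence of each gene on GRCm38. TATTTAT stood in the 3'UTR of 2 of the 10 subunits, against 27.4% of the 11323 genes searched, and ATTTA in 6 of the 10, against 66.1%. The subunits' 3'UTRs had a median length of 783.5 bases and those of all genes 955. Other transcripts of these genes were not searched. For Ppp2r5c the transcript used had 1847 bases, where the exons of the gene join to 8286. The 3 TATTTAT sites are shown with 11 bases on each side, and the capitals mark the motif. Among the 3'UTRs searched for the 10 subunits they are the sequences most like those that TTP is known for. The site in Ppp2r2d lies at chr7:138882717-138882745 (plus strand), 240 bases after the stop codon, and those in Ppp2r5e at chr12:75453381-75453409 and chr12:75453295-75453323 (minus strand), 316 and 402 bases after it.
Ppp2r2d site 1: ttactcaaatgTATTTATttaagtctgag
Ppp2r5e site 1: caggagttcctTATTTATcactagcagag
Ppp2r5e site 2: gctgttaaatgTATTTATagtaaaggaag
These are matches of letters and not measured binding sites. Ppp2ca, with the longest of the 3'UTRs (5804 bases), held 6 copies of ATTTA and none of TATTTAT, and Ppp2r2a (2318 bases) held 7 and none. No copy of either was in the 3'UTRs searched for Ppp2r1a (445 bases), Ppp2r1b (49 bases), Ppp2r5c (272 bases) or Ppp2r5d (998 bases).

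The library values were the fitted means of the authors' model: each was a library factor multiplied by a term for the replicate number and a term for the group. They carried no scatter between replicates, so no test, standard error or p-value over libraries could be computed, and a difference between 2 groups was the same in replicates 1, 2 and 3 by construction. The spread among the 3 libraries of a group is given below, but it is that of the replicate-number term alone. The brackets give 95% intervals from the number of fitted reads, which cover counting error only. Levels are fitted reads divided by the library factor, and the level of a group is the geometric mean of its 3 libraries. Some genes with few reads had nearly equal fitted groups, such as Ppp2r2b with levels of 0.164 in GFP, 0.164 in TTP and 0.167 in TTP-AA. The sources used here do not say whether the fit drew group differences toward 0. How far this holds for the subunits or for the counts of genes past a fold line was not tested. The fitted reads summed to between 21482954 and 102613526 per library, with TTP replicate 1 the lowest and TTP-AA replicate 3 the highest. Between 372 and 50501 fitted reads stood behind each subunit in each library. A bulk level cannot tell fewer cells from less RNA per cell. A difference of at least 1.2-fold (0.26 on the log2 scale) was used as a line for counting genes.

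Zfp36, the disrupted gene, was examined first, because the transgenes for TTP carry its coding sequence and its reads bear on the labels. Its level was 1741, 1423 and 894 scaled fitted reads in GFP replicates 1, 2 and 3, 1794, 1461 and 921 in TTP, and 2796, 2278 and 1437 in TTP-AA. TTP-AA was above GFP by 0.68 on the log2 scale [0.624 to 0.740], whereas TTP differed from GFP by 0.04 [-0.026 to 0.109]. The reads of this gene thus did not set the libraries labelled TTP apart from those labelled GFP, and reads from the disrupted gene and from a transgene cannot be told apart. TTP and GFP stand below for the libraries so labelled.

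The macrophage identity of the cells was checked with 7 markers, and their summed level was 574847 to 792885 scaled fitted reads in GFP, 480045 to 658346 in TTP and 647827 to 888968 in TTP-AA. Lyz2 alone made up most of these sums, with group levels of 591535 in GFP, 485691 in TTP and 662020 in TTP-AA. In TTP-AA against TTP 3 of the 7 were higher by at least 1.2-fold, namely Emr1 (the gene for F4/80, 1.42 on the log2 scale), Lyz2 (0.45) and Spi1 (0.38), and Ptprc was lower (-0.35). In TTP against GFP Emr1 (-0.75) and Lyz2 (-0.28) were lower, and in TTP-AA against GFP Emr1 (0.67) and Spi1 (0.28) were higher. Over all 13027 genes 36.9% passed that line in either direction in TTP-AA against TTP, 18.8% in TTP against GFP and 28.5% in TTP-AA against GFP. The 5 markers found of other cell types summed to 9.10 to 11.0 scaled fitted reads in each of the 9 libraries. The part of the macrophage marker differences in the subunit differences below was not tested.

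None of the 10 subunits differed by 1.2-fold or more between any 2 groups. For TTP against GFP the count was 0 of 10, where 18.8% of the 13027 genes passed that line in either direction. For TTP-AA against GFP it was 0 of 10 against 28.5% of all genes, and for TTP-AA against TTP 0 of 10 against 36.9%. Ppp2r1a, 19.9% higher in TTP-AA than in TTP, and Ppp2r5c, 19.4% higher, lay just inside the line in the last comparison. With a line at 1.1-fold, 3 subunits passed in TTP against GFP (47.1% of all genes), 5 in TTP-AA against GFP (55.2%) and 6 in TTP-AA against TTP (62.4%). The median log2 difference over the 10 was 0.06, 0.12 and 0.03 in these comparisons, beside 0.01, -0.01 and -0.03 over all genes. In TTP-AA against GFP 8 of the 10 were higher and 2, both catalytic, were lower. In TTP against GFP 7 were higher and 3 lower, and in TTP-AA against TTP the split was 5 and 5. Of the 13027 genes 6736 were higher in TTP against GFP, 6236 in TTP-AA against GFP and 6048 in TTP-AA against TTP. The comparisons share groups, so these counts do not add up as separate evidence.

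**Figure D1:**
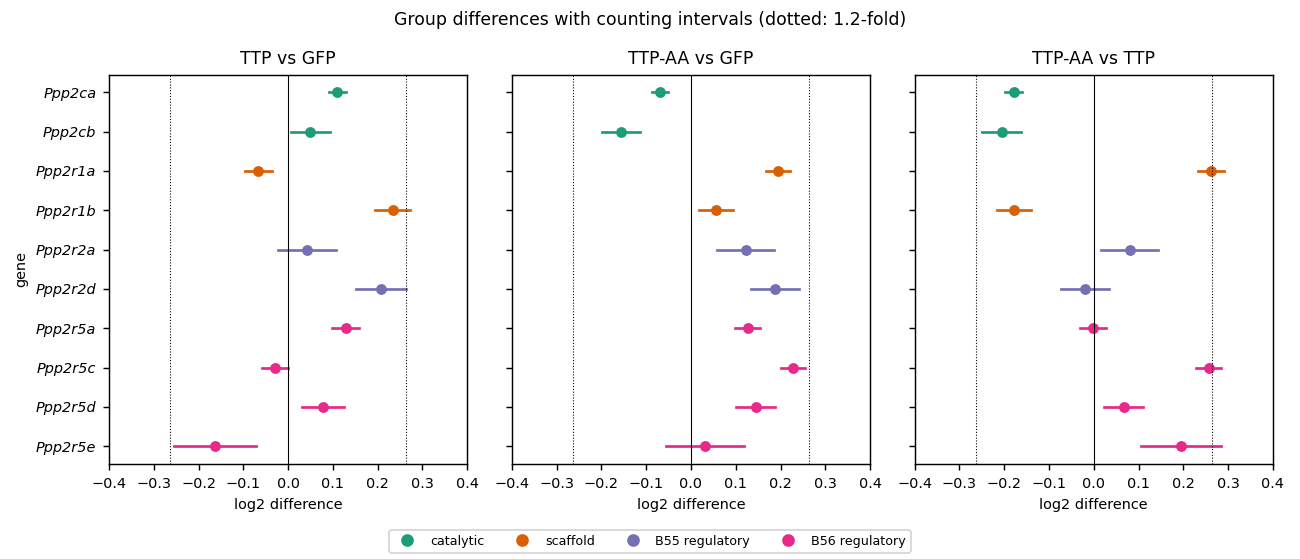
Log2 difference between groups for each PP2A subunit mRNA in the 3 comparisons (points, coloured by subunit class), with 95% intervals that cover counting error only (bars) and 1.2-fold marked by dotted lines. All points lie inside the dotted lines, with Ppp2r1a and Ppp2r5c nearest to them in TTP-AA vs TTP at 0.26.

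**Figure D2:**
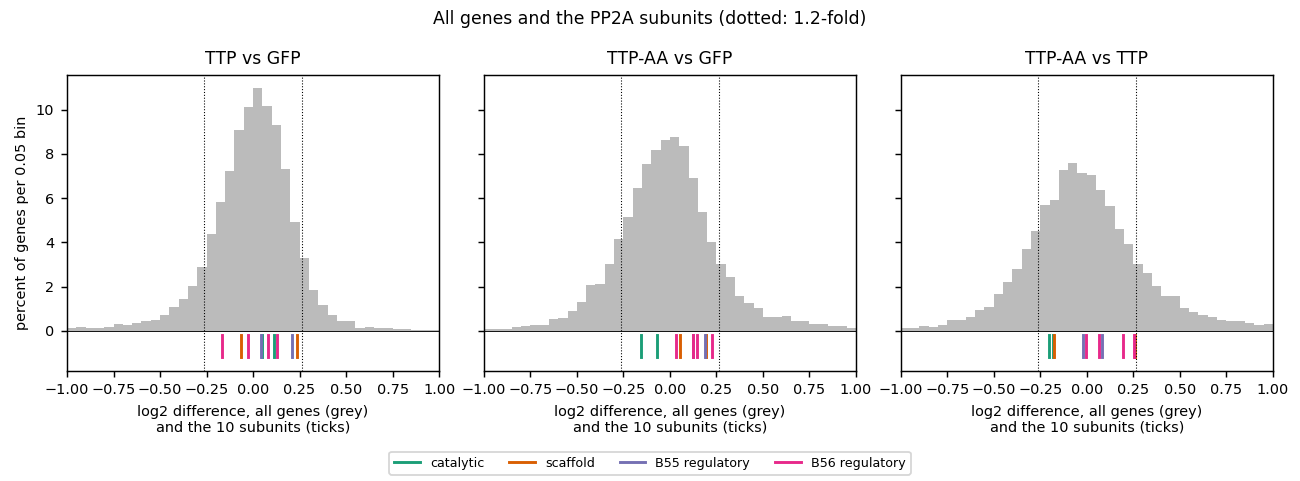
Distribution of the log2 difference over 13027 genes (grey bars, percent of genes in bins 0.05 wide, with 1.34%, 1.48% and 3.18% of genes lying outside the axis) and the 10 subunits (coloured ticks) in the 3 comparisons. The ticks lie within the 1.2-fold lines, which 18.8%, 28.5% and 36.9% of all genes pass.

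The catalytic subunits, the enzyme's active centre, had their lowest levels in TTP-AA and their highest in TTP. Ppp2ca (ENSMUSG00000020349, chr11:52098681-52127778, plus strand) measured 16182, 17547 and 18618 scaled fitted reads in GFP replicates 1 to 3, 17481, 18897 and 20114 in TTP, and 15433, 16690 and 17774 in TTP-AA. The ranges of the 3 groups overlapped. At equal replicate number TTP-AA stood at 0.883 times TTP (log2 -0.18 [-0.197 to -0.161]) and at 0.953 times GFP (-0.07 [-0.087 to -0.051]), and TTP was 7.92% above GFP (0.11 [0.092 to 0.128]). Ppp2ca ranked 254th by level of the 13027 genes. Ppp2cb (ENSMUSG00000009630, chr8:33599625-33619441, plus strand) encodes an almost identical protein. It measured 2754, 3138 and 3754 in GFP, 2852, 3239 and 3888 in TTP and 2472, 2809 and 3373 in TTP-AA, so that replicate 3 was the highest in each group and the groups overlapped. TTP-AA stood at 0.867 times TTP (log2 -0.21 [-0.250 to -0.162]) and 0.897 times GFP (-0.16 [-0.199 to -0.114]). TTP and GFP differed by 0.05 [0.005 to 0.093].

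The ratio of reads between both catalytic genes, which does not depend on how libraries are scaled, was 5.46 in GFP, 5.70 in TTP and 5.80 in TTP-AA. TTP-AA and TTP differed in it by 0.03 on the log2 scale [-0.021 to 0.074]. Read ratios between genes also carry their lengths. The exons of Ppp2ca join to 7490 bases and those of Ppp2cb to 1469, and per kilobase of exon the group levels were 2326 and 2171 in GFP, 2510 and 2246 in TTP and 2217 and 1948 in TTP-AA. Ppp2ca then made up 51.7% ± 2.18 of the catalytic reads per kilobase in GFP (mean ± SD over 3 libraries), 52.8% ± 2.18 in TTP and 53.2% ± 2.17 in TTP-AA. The coding sequences, of 927 bases each, were identical at 757 positions (81.7%), with a longest identical run of 25 bases, and the transcripts shared no stretch of 50 bases, the read length. Of the 50-base windows of the Ppp2ca transcript 43.2% also occurred elsewhere among annotated transcripts, mostly in 9430098F02Rik, a noncoding RNA that overlaps 2985 bases of its exons on the other strand. The sources used here do not say whether counting respected strand, so reads from that stretch cannot be told apart between both genes.

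The scaffold subunits, which hold the complex together, differed in their order over the groups. Ppp2r1a (ENSMUSG00000007564, chr17:20945311-20965916, plus strand), the A-alpha subunit, measured 7355, 7160 and 6192 scaled fitted reads in GFP replicates 1 to 3, 7029, 6821 and 5917 in TTP, and 8423, 8177 and 7098 in TTP-AA. The lowest TTP-AA library was above the highest TTP library, while GFP overlapped both. The difference of TTP-AA from TTP was 0.26 on the log2 scale [0.234 to 0.290], from GFP 0.19 [0.168 to 0.222], and TTP was below GFP by a log2 difference of -0.07 [-0.097 to -0.037]. Ppp2r1b (ENSMUSG00000032058, chr9:50845301-50894229, plus strand), the A-beta subunit, had the other order. It measured 3573, 3263 and 4302 in GFP, 4205, 3829 and 5064 in TTP and 3717, 3386 and 4481 in TTP-AA. TTP was highest, at each replicate number by construction, and all groups overlapped. TTP was 17.6% above GFP (log2 0.23 [0.195 to 0.273]), TTP-AA stood at 0.884 times TTP (-0.18 [-0.215 to -0.139]), and TTP-AA and GFP differed by 0.06 [0.018 to 0.095]. The exons of Ppp2r1b overlap 1429 bases of Sik2 exons on the other strand, where the same limit on strand applies.

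The read ratio of Ppp2r1a to Ppp2r1b was 1.87 in GFP, 1.52 in TTP and 2.05 in TTP-AA. TTP-AA was 1.36-fold above TTP in this ratio (log2 0.44 [0.392 to 0.487]), and TTP was 1.23-fold below GFP (-0.30 [-0.350 to -0.251]). Per kilobase of exon Ppp2r1a made up 79.6%, 80.6% and 73.1% of the scaffold reads in GFP replicates 1 to 3, 76.0%, 77.1% and 68.8% in TTP, and 81.1%, 82.0% and 75.0% in TTP-AA. The share was thus lowest in TTP and highest in TTP-AA, an order that the fit repeats at each replicate number by construction. The ranges of the groups overlapped because replicate 3 was low in all of them. The ratio of Ppp2r1a to Ppp2ca, scaffold to catalytic, was 0.395 in GFP, 0.350 in TTP and 0.474 in TTP-AA. TTP-AA differed from TTP in it by 1.36-fold (log2 0.44 [0.407 to 0.474]). These pairs were picked with the levels known.

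**Figure D3:**
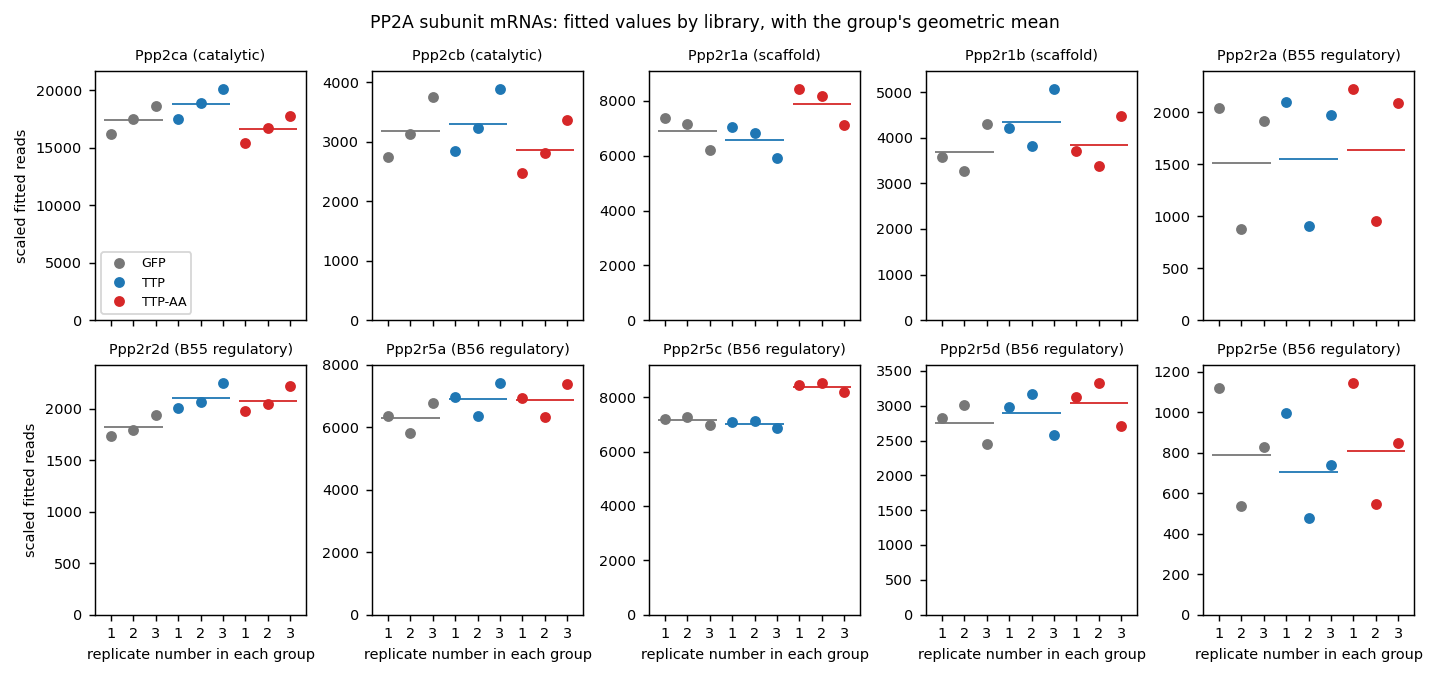
Level of each PP2A subunit mRNA in each library (points, scaled fitted reads, axes from 0) by group and replicate number, with the group's geometric mean (line). Within a gene the replicates form the same pattern in GFP, TTP and TTP-AA because the values are fitted, and the TTP-AA libraries of Ppp2r5c (8210 to 8517) lie above those of the other groups (6870 to 7288).

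The B55 subunits are regulatory subunits with roles in mitotic exit and kinase signalling, and neither passed 1.2-fold in any comparison. Ppp2r2d (ENSMUSG00000041769, chr7:138846079-138883057, plus strand), which carries a TATTTAT site, measured 1733, 1794 and 1942 scaled fitted reads in GFP replicates 1 to 3, 2004, 2068 and 2245 in TTP, and 1976, 2040 and 2216 in TTP-AA. The libraries of TTP and of TTP-AA lay above all 3 GFP libraries. TTP was 15.5% above GFP (log2 0.21 [0.152 to 0.263]) and TTP-AA 13.9% (0.19 [0.135 to 0.241]), and TTP-AA and TTP differed by -0.02 [-0.072 to 0.033]. Ppp2r2a (ENSMUSG00000022052, chr14:67014056-67072444, minus strand), B55-alpha, measured 2042, 879 and 1915 in GFP, 2105, 903 and 1973 in TTP and 2224, 954 and 2088 in TTP-AA. Replicate 2 was far below replicates 1 and 3 in each group. The groups differed little beside this, with TTP-AA above GFP by 0.12 [0.058 to 0.186], above TTP by 0.08 [0.017 to 0.144], and TTP against GFP at 0.04 [-0.023 to 0.107].

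Per kilobase of exon Ppp2r2a made up 56.4%, 34.9% and 51.96% of the B55 reads in GFP replicates 1 to 3, 53.5%, 32.4% and 49.1% in TTP, and 55.3%, 33.9% and 50.8% in TTP-AA. Ppp2r2d therefore led in replicate 2 of each group, and narrowly in TTP replicate 3. The mean share of Ppp2r2d was 52.2% ± 11.3 in GFP, 54.99% ± 11.2 in TTP and 53.3% ± 11.3 in TTP-AA (SD over 3 libraries), so the group means differed by less than the spread over replicate numbers. The order depends on the length used: with the length of the transcript with the longest coding sequence Ppp2r2d led in all 9 libraries, with 62.1% to 81.5%. The transcript of Ppp2r2a shares 6.31% of its 50-base windows with the pseudogene Gm19221. The exons of Ppp2r2d overlap 195 bases of Mapk1ip1 exons on the other strand, with the limit on strand given for Ppp2ca.

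The B56 subunits are regulatory subunits that direct PP2A to proteins such as MYC and p53, and none of the 4 passed 1.2-fold in any comparison. Their median log2 difference was 0.02 in TTP against GFP, 0.14 in TTP-AA against GFP and 0.13 in TTP-AA against TTP. Ppp2r5c (ENSMUSG00000017843, chr12:110447120-110583062, plus strand), B56-gamma, measured 7212, 7288 and 6999 scaled fitted reads in GFP replicates 1 to 3, 7078, 7131 and 6870 in TTP, and 8451, 8517 and 8210 in TTP-AA. All 3 TTP-AA libraries were above all 6 others. TTP-AA was 17.1% above GFP (log2 0.23 [0.202 to 0.254]) and 19.4% above TTP (0.26 [0.229 to 0.284]), and TTP and GFP differed by -0.03 [-0.058 to 0.001]. Ppp2r5c was also the subunit with the smallest range over replicate numbers, 0.06 on the log2 scale.

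Ppp2r5a (ENSMUSG00000026626, chr1:191351975-191403272, minus strand), B56-alpha, measured 6368, 5826 and 6770 in GFP, 6970, 6356 and 7409 in TTP and 6955, 6346 and 7401 in TTP-AA. TTP and TTP-AA were nearly equal and 9.33% and 9.15% above GFP (log2 0.13 [0.098 to 0.159] and 0.13 [0.097 to 0.155]), with overlapping libraries. TTP-AA against TTP gave -0.0024 on the log2 scale [-0.031 to 0.027]. Ppp2r5d (ENSMUSG00000059409, chr17:46682991-46705111, minus strand), B56-delta, measured 2825, 3011 and 2443 in GFP, 2985, 3172 and 2582 in TTP and 3124, 3321 and 2705 in TTP-AA. Its groups overlapped, and TTP-AA was above GFP by 0.14 [0.102 to 0.187] and above TTP by 0.07 [0.023 to 0.110]. For Ppp2r5a 11.4% of the 50-base windows, and for Ppp2r5d 2.41%, occur in other annotated transcripts. The exons of Ppp2r5d overlap 121 bases of Mea1 exons on the other strand, with the limit on strand given for Ppp2ca.

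Ppp2r5e (ENSMUSG00000021051, chr12:75450881-75596245, minus strand), B56-epsilon, was the least abundant subunit and carries both remaining TATTTAT sites. It measured 1119, 535 and 827 in GFP, 999, 476 and 739 in TTP and 1144, 545 and 846 in TTP-AA, again with replicate 2 the lowest in each group and with the groups overlapping. TTP stood at 0.892 times GFP (log2 -0.16 [-0.256 to -0.073]), TTP-AA was 14.5% above TTP (0.20 [0.105 to 0.285]), and TTP-AA and GFP differed by 0.03 [-0.056 to 0.117]. The genes with TATTTAT sites thus had different orders: TTP was above GFP for Ppp2r2d and below it for Ppp2r5e.

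Per kilobase of exon Ppp2r5c had the largest mean share of the B56 reads in GFP and TTP-AA, and Ppp2r5d narrowly in TTP. Ppp2r5c held 34.8% ± 0.888 in GFP, 33.1% ± 0.766 in TTP and 36.4% ± 0.854 in TTP-AA (mean ± SD over 3 libraries). Ppp2r5d held 32.6% ± 3.10, 33.4% ± 3.14 and 32.2% ± 3.01, and Ppp2r5a 26.5% ± 2.35, 28.1% ± 2.50 and 25.8% ± 2.32. The ranges of Ppp2r5c and Ppp2r5d overlapped in GFP and TTP, so their order does not hold at each replicate number there, while in TTP-AA the lowest share of Ppp2r5c (35.5%) was just above the highest of Ppp2r5d (35.3%). Ppp2r5e held 6.19% ± 2.05, 5.37% ± 1.79 and 5.66% ± 1.88. The order of Ppp2r5d and Ppp2r5a turned with the length used: in GFP the mean shares of Ppp2r5c, Ppp2r5a and Ppp2r5d were 55.4%, 29.2% and 12.97% with the length of the transcript with the longest coding sequence, and 41.99%, 37.0% and 16.2% with no division by length. The read ratio of Ppp2r5c to Ppp2r5a was 1.14 in GFP, 1.02 in TTP and 1.22 in TTP-AA, a log2 difference of 0.26 between TTP-AA and TTP [0.219 to 0.299].

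**Figure D4:**
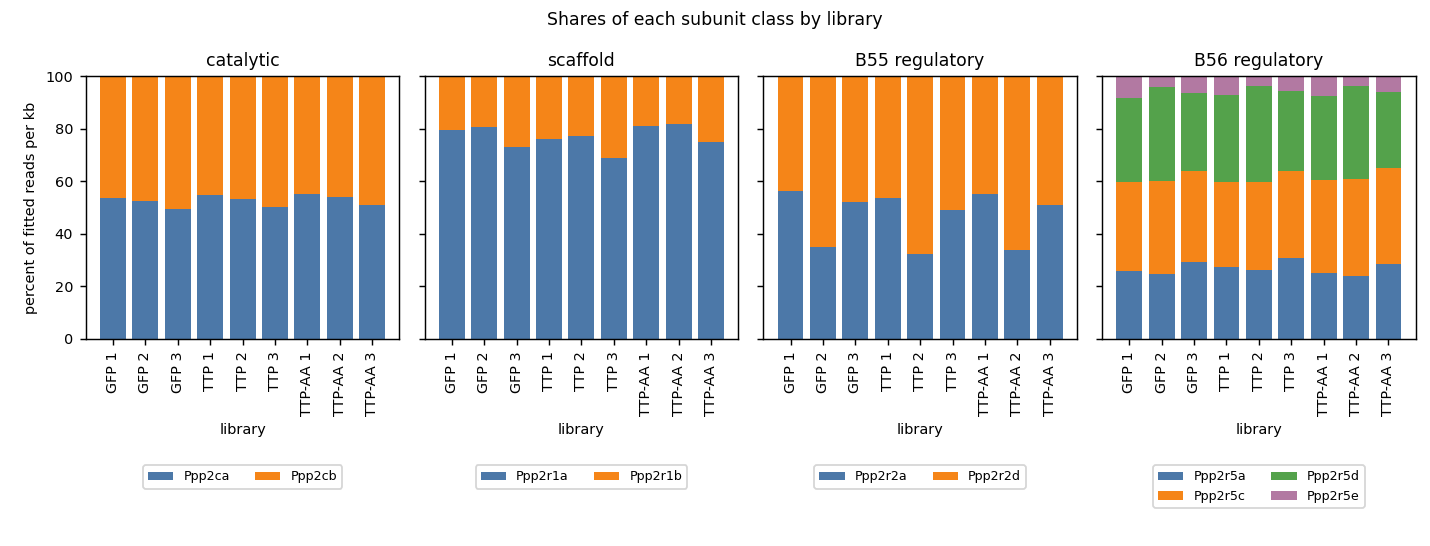
Share of each gene in the fitted reads per kilobase of exon of its subunit class (stacked bars, percent), by library. Ppp2r1a holds 68.8% to 82.0% of the scaffold bars, Ppp2ca 49.3% to 55.05% of the catalytic bars, and Ppp2r2a is lowest in replicate 2 of each group (32.4% to 34.9%).

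Across the 10 subunits the level per kilobase of exon in GFP ran from 148 for Ppp2r5e to 2326 for Ppp2ca. The catalytic genes and Ppp2r1a (2018) stood at the top, followed by Ppp2r5c (865), Ppp2r5d (808), Ppp2r5a (657) and Ppp2r1b (572), and then by the B55 genes Ppp2r2d (309) and Ppp2r2a (280). In TTP-AA Ppp2r1a (2310) came before Ppp2ca (2217) and Ppp2cb (1948), and in GFP and TTP it came after both. In the GFP order most neighbours were closer to each other than the range over replicate numbers of at least 1 gene of the pair. These were Ppp2ca and Ppp2cb, Ppp2cb and Ppp2r1a, Ppp2r5c and Ppp2r5d, Ppp2r5a and Ppp2r1b, Ppp2r2d and Ppp2r2a, and Ppp2r2a and Ppp2r5e. This order, and the place of Ppp2r1a beside the catalytic genes in each group, rest on the length used. In an alternative added after the data were seen, with the length of the transcript with the longest coding sequence, Ppp2r5c (3879) came first in GFP, before Ppp2r1a (2856), Ppp2ca (2453) and Ppp2cb (2171), Ppp2r1b (1680) came before Ppp2r5d (905), and Ppp2r1a came before both catalytic genes in all 3 groups. Ppp2r5e (164) remained last.

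For most of the subunits, as for most of all genes, the groups were set apart less than the replicate numbers. The log2 range over the 3 group levels lay between 0.12 (Ppp2r2a) and 0.26 (Ppp2r1a), with a median of 0.20, and the range over the 3 replicate numbers between 0.06 (Ppp2r5c) and 1.22 (Ppp2r2a), with a median of 0.27. Over all 13027 genes these medians were 0.26 and 0.33. The replicate number had the wider range for 7 of the 10 subunits, beside 59.7% of all genes, and the exceptions were Ppp2r1a, Ppp2r2d and Ppp2r5c. Because the values are fitted, the libraries of 2 groups lie apart where the groups differ by more than the range over replicate numbers. The cases without overlap were therefore in the same 3 genes by construction. Ppp2r2d was the 1 subunit of 10 in TTP against GFP (19.6% of all genes), Ppp2r2d and Ppp2r5c the 2 in TTP-AA against GFP (25.1%), and Ppp2r1a and Ppp2r5c the 2 in TTP-AA against TTP (31.3%), and in each case the group named first was higher.

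**Figure D5:**
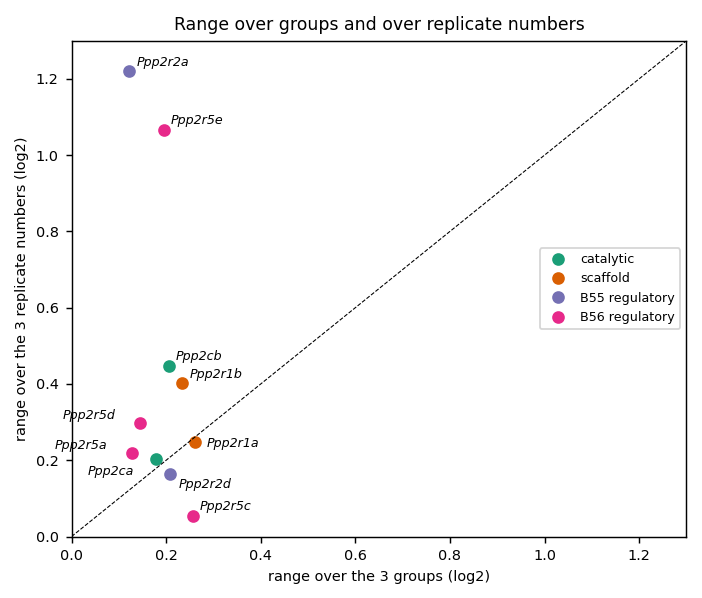
Log2 range over the 3 replicate numbers against log2 range over the 3 groups for each subunit mRNA (points, coloured by class, with the line of equality dashed). Ppp2r2a (1.22) and Ppp2r5e (1.07) stand far above the line, and Ppp2r5c (0.06 over replicate numbers, 0.26 over groups) below it.

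The 2 subunits with the widest range over replicate numbers were both lowest in replicate 2. Relative to the gene's mean over replicate numbers on the log2 scale, Ppp2r2a stood at 0.44, -0.78 and 0.34 in replicates 1, 2 and 3, and Ppp2r5e at 0.50, -0.57 and 0.07, a 2.33-fold and a 2.09-fold range. Both have transcripts of low GC content (42.4% and 45.3%), where the median was 50.1% for the subunits and 50.3% for all genes. Across the 10 subunits the replicate 2 term and transcript GC had a Pearson correlation of 0.71 and a Spearman correlation of 0.60, and across 11525 genes 0.25 and 0.30. For the terms of replicates 1 and 3 the values over the subunits were -0.55 and -0.50 (Pearson) and -0.08 and -0.44 (Spearman), and over all genes -0.15 and -0.13, and -0.18 and -0.16. The 3 terms of a gene sum to 0, so these values are tied to each other. These are descriptions across genes that share the same libraries. Ppp2ca, at 44.6% GC, stood at 0.01 in replicate 2. The part of GC content in these terms was not tested.

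The other regulatory subunits of PP2A, taken as a list of 9 genes of which 7 passed the minimum mean, had medians of -0.04, -0.09 and -0.04 in TTP against GFP, TTP-AA against GFP and TTP-AA against TTP. None passed 1.2-fold in TTP against GFP. In TTP-AA against TTP Ppp2r3d was higher (log2 0.27 [0.159 to 0.371]) and Strn, a striatin that joins PP2A to kinases, was lower (-0.36 [-0.411 to -0.313]). Strn was also lower in TTP-AA against GFP (-0.41), as was the B56 gene Ppp2r5b (-0.28), which was named after its value was seen. Of all genes 18.8%, 28.5% and 36.9% passed the line in TTP against GFP, TTP-AA against GFP and TTP-AA against TTP.

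Factors that assemble or methylate the catalytic subunit were 5 genes, with medians of 0.04, -0.01 and -0.08. Tiprl, which binds the catalytic subunits of PP2A-like phosphatases, was the 1 gene past 1.2-fold in TTP-AA against TTP (log2 -0.31 [-0.360 to -0.257]) and also in TTP-AA against GFP (-0.29), and none passed in TTP against GFP. Inhibitor proteins of PP2A were 8 genes, with medians of 0.13, -0.09 and -0.17. In TTP-AA against TTP 3 of them were lower by at least 1.2-fold and none higher. They were Anp32e (-0.52 [-0.555 to -0.481]), Bod1 (-0.29 [-0.354 to -0.229]), whose protein inhibits PP2A with B56, and Set (-0.27 [-0.285 to -0.260]), which binds the catalytic subunit. Anp32e had levels of 5697 in GFP, 5435 in TTP and 3795 in TTP-AA, and Set of 35285, 43435 and 35959. In TTP-AA against GFP Anp32e was the 1 inhibitor gene past 1.2-fold (-0.59 [-0.622 to -0.550]). Bod1 (-0.09) and Set (0.03) did not pass it there. In TTP against GFP Set was higher (0.30) and Ensa, a mitotic inhibitor of PP2A with B55, was lower (-0.29), the latter named after its value was seen. These lists were not tested against other genes. The same line was passed by 36.9% of all genes in TTP-AA against TTP, 28.5% in TTP-AA against GFP and 18.8% in TTP against GFP.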

How the data were processed

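Total RNA depleted of ribosomal RNA was sequenced as single reads of 50 bases. According to the submitters' processing notes, which list Trim Galore, TopHat2 2.0.12, HTSeq and DESeq2 1.6.3, reads were trimmed, aligned to GRCm38, counted per gene and fitted. The study's methods name another TopHat release and give library date and condition as the terms of the fit. The deposited library table, named as normalised counts, holds signal values on the scale of reads: the authors' fitted means, since no value was 0 and after library, replicate-number and group terms the largest log2 residual was 8.9e-15. It had 25504 rows, of which 10 repeated a gene and were dropped. The authors' deposited comparison tables hold fold changes, standard errors, test statistics and p-values, which were not used here, and a mean signal per gene, which the scaled means matched (median 100.4%). Each of the 3 tables lists all 10 subunits.

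Groups and replicate numbers came from the sample titles. Whether the replicates came from separate cultures is not given beyond their being called biological replicates. Values were divided by median-of-ratios library factors (0.609 to 2.84), genes with a mean of at least 10 were kept, and group levels were geometric means. A design with limma had been foreseen for values with scatter of their own, and fitted means allowed no test. Intervals at 95% treat fitted reads as counts and cover counting error only. The steps were tested on simulated data. Positions, exon lengths, GC content and 3'UTR sequences came from GENCODE mouse release 21 transcripts on GRCm38, which gave a length for 99.5% of the genes kept. Python 3.11.15, numpy 2.4.6, pandas 2.3.3 and matplotlib 3.10.9 were used.

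The subunits and lists were chosen with earlier results of these data known. Named are the 10 subunits, Zfp36 and, of each other list, up to 4 genes at least 1.2-fold different in TTP-AA against TTP. Alternatives were other library scalings, minimum means, fold lines and gene lengths.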

Additional observations from a re-analysis of the deposited data

How the results depend on the processing

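No paired analysis was possible because the library values were fitted means, which leave no residual for a fit with or without the replicate number as a block. For the same reason limma and leaving out each library in turn were not run: with fitted terms a difference between groups is the same at each replicate number. Scaling libraries by their totals moved the group differences by at most 0.01 on the log2 scale and centring on the mean log2 difference by at most 0.02. With library totals 2 subunits passed 1.2-fold in TTP-AA against TTP (Ppp2r1a and Ppp2r5c, both 0.27; 36.5% of all genes), where the median of ratios gave 0, and the difference of Ppp2r5a in that comparison went from -0.0024 to 0.01. With a line at 1.1-fold 3, 5 and 6 subunits passed in TTP against GFP, TTP-AA against GFP and TTP-AA against TTP, and at 1.5-fold none did (3.89%, 6.16% and 9.73% of all genes). Keeping all 25494 genes lowered the share of genes past 1.2-fold to 10.1%, 15.8% and 20.4%, and a minimum mean of 50 (11121 genes) gave 17.8%, 27.2% and 36.1%. Shares within a class depended on the length used. With the length of the transcript with the longest coding sequence Ppp2r1a made up 61.9% of the scaffold, Ppp2r2d 70.4% of the B55 and Ppp2r5c 55.2% of the B56 reads over the 9 libraries, and with no division by length Ppp2ca made up 84.9% of the catalytic, Ppp2r1a 64.1% of the scaffold and Ppp2r5c 41.9% of the B56 reads, against 52.6%, 77.03%, 53.5% and 34.7% for Ppp2ca, Ppp2r1a, Ppp2r2d and Ppp2r5c by exon length. The order of Ppp2r5d and Ppp2r5a within B56, the leading B55 gene of single libraries and the order of the subunits by level turned with the transcript length. The 60 differences of single subunits computed under an alternative stayed inside their counting intervals. Among the other 29 summary values counts were kept, and shares moved by less than their SD over libraries. Median differences moved by less than the median distance from a subunit's difference to the end of its counting interval.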

Other observations

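The catalytic subunits of the other phosphatases of the same family, 9 genes, had medians of -0.04, -0.13 and -0.03 on the log2 scale in TTP against GFP, TTP-AA against GFP and TTP-AA against TTP. None passed 1.2-fold in TTP against GFP (18.8% of all genes) or in TTP-AA against TTP (36.9%). In TTP-AA against GFP Ppp1ca (0.36 [0.343 to 0.379]), a catalytic subunit of PP1, and Ppp4c (0.30 [0.268 to 0.328]), that of PP4, were higher, and the calcineurin genes Ppp3ca (-0.44 [-0.467 to -0.404]) and Ppp3cc (-0.30 [-0.442 to -0.165]) were lower. These 4 genes were named after their values were seen, and 28.5% of all genes passed the same line in that comparison. The PP2A catalytic genes Ppp2ca (-0.07) and Ppp2cb (-0.16) were both below GFP there without passing it.

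The 14-3-3 proteins, adaptors that bind phosphorylated TTP, were 7 genes of which 6 passed the minimum mean, with medians of 0.06, -0.16 and -0.20 in the same order of comparisons. In TTP-AA against TTP Ywhab (-0.31 [-0.336 to -0.291]) and Ywhae (-0.30 [-0.327 to -0.276]) were lower by at least 1.2-fold and Ywhaq was higher (0.29 [0.266 to 0.316]), beside 36.9% of all genes. Ywhab had levels of 12298 in GFP, 13256 in TTP and 10664 in TTP-AA, Ywhae of 9922, 10390 and 8430, and Ywhaq of 7520, 8189 and 10020. Ywhaq was also the 1 gene of the list past 1.2-fold in TTP-AA against GFP (0.41, beside 28.5% of all genes). None of the list passed in TTP against GFP (18.8% of all genes).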
